A study of Gallus gallus with 12 samples.

Results

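The genes described here lie on chromosome Z of the chicken and were measured in embryonic hearts. Birds have ZZ males and ZW females, so a male cell holds 2 copies of a Z-linked gene and a female cell 1. No whole Z chromosome is silenced in birds, and dosage compensation, the adjustment that brings both sexes to a like level, is known to be incomplete and to differ from gene to gene. HINTW is a W-linked gene transcribed across female tissues, so its level in RNA from a mixture of embryos is a guide to the share that came from females. A Z-linked gene whose output tracks copy number would be lower where HINTW is higher, and a compensated gene would be level.

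The study set 3 breeds of chicken, Tibetan, Shouguang and Dwarf Recessive White, side by side, with fertilized full-sib eggs of each incubated in hypoxia or in normoxia. Each of the 6 groups of a breed and a condition has 2 arrays, 12 in all, each hybridised with labelled RNA from heart. The groups are thus Tibetan in hypoxia, Tibetan in normoxia, Shouguang in hypoxia, Shouguang in normoxia, Dwarf Recessive White in hypoxia and Dwarf Recessive White in normoxia. Neither the sources used here nor the labels state the oxygen level, the embryonic day, whether males or females were taken, or how many hearts were pooled. P-values therefore measure only how far these arrays spread, and that spread may be technical.

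The list named 37 genes, chosen as genes of chromosome Z with a range of roles. Of these, 30 were placed on Z by the GRCg7b gene table and were bright enough to test, out of 10276 named genes past the same filter (a mean signal of at least 79.5). NTRK2, MAP1B and ROR2 are on Z but fell below the filter, at mean signals of 39.4, 35.9 and 56.4. HINT1 and NIPBL had no probe set under their symbols and were not analysed here. The gene table places BAG1 and NFX1 on chromosome 2, against the label of the list, so they were kept out of the Z-linked counts. For comparison, 446 other Z-linked genes, 9665 autosomal genes and 14 W-linked genes passed the filter. Each gene was represented by the probe set with the highest mean signal.

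Levels are log2 signal minus the median log2 signal of the same array, so a level of 0 is the middle of that array and 1 unit is a 2-fold change. All 9 cardiomyocyte markers examined, TNNT2, TNNC1, ACTC1, MYBPC3, NKX2-5, TBX5, NPPA, PLN and MYH7B, were past the filter, and their summed signal ranged from 219916 to 254323 over the arrays. Of 5 gonad markers, DMRT1, SOX9 and CYP19A1 were below it. The other 2 were past it, AMH with a signal of 929 to 1505 over the arrays and FOXL2 with one of 29 to 335. Red blood cell markers were present on every array, with a summed signal between 86651 and 101211 over 5 genes, and the sum of 6 plasma protein genes ranged from 3094 to 12625. The log2 sums correlated with log2 HINTW over the 12 arrays at r = 0.51 for plasma protein, 0.10 for cardiomyocyte, -0.20 for red blood cell and 0.07 for gonad markers, as a description. These are sums of signal, and HINTW correlated with the array median at r = 0.43. Single genes often went otherwise than their sum. For cardiomyocyte markers r ran from -0.40 (MYH7B) to 0.25 (TBX5), with -0.15 for TNNT2 and -0.05 for NPPA. All but TBX5 were below 0. The r was -0.07 for AMH and -0.09 for FOXL2, and plasma protein genes ran from 0.13 (APOA1) to 0.37 (FGB), each below the 0.51 of their sum. The part of these markers in the results below was not tested. In RNA from whole hearts, fewer cells of a type and less RNA per cell cannot be told apart.

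HINTW differed more between arrays than any Z-linked gene listed. Its signal was 214 and 7778 in Dwarf Recessive White normoxia, 21934 and 7558 in Dwarf Recessive White hypoxia, 21644 and 10297 in Shouguang normoxia, 4391 and 4471 in Shouguang hypoxia, 16462 and 17553 in Tibetan normoxia, and 18543 and 15212 in Tibetan hypoxia, with replicate 1 first. The lowest and the highest array were 103-fold apart, and 4.995-fold without Dwarf Recessive White normoxia replicate 1. That array stood far below the other 11 on the log2 scale. A second, dimmer probe set of HINTW was also lowest there, at a level of -0.49. It spanned 3.39 log2 units, against 6.63 for the first, and read -0.27 and 1.20 in Shouguang hypoxia. The range of HINTW and the order of the arrays thus depend on the probe set, and all results below use the first. On the first probe set all 4 Tibetan arrays lay in the upper range and both Shouguang hypoxia arrays in the lower range. The other breeds' groups were spread widely. HINTW was thus unevenly shared between breeds and conditions, and this bears on most comparisons of groups below. Within Tibetan it was alike in both conditions, with mean levels of 6.81 in hypoxia and 6.88 in normoxia.

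Most other W-linked genes were high where HINTW was high. Over 12 arrays their mean level correlated with it at r = 0.97, as a description, since all points share the same arrays. UBE2R2L, LOC374195 (also known as CHD1W), LOC430910 and SPIN1L had the highest correlations of any named gene, with r of 0.99, 0.98, 0.98 and 0.96. HNRNPKL, a W-linked relative of an RNA-binding protein gene, had r of 0.92. The table also places NEDD4L, MBD2 and LOC425347 on W, but their correlations with HINTW were below 0, with r of -0.55, -0.01 and -0.05.

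Among the measured genes, SPIN1 is the one whose full symbol followed by W names a W-linked gene. It encodes spindlin, a reader of histone methylation, and SPIN1L is also known as SPIN1W. SPIN1L stood at -5.25 and 0.43 in Dwarf Recessive White normoxia, 0.83 and -1.24 in Dwarf Recessive White hypoxia, 1.20 and 0.61 in Shouguang normoxia, -1.23 and -0.24 in Shouguang hypoxia, 0.46 and 1.06 in Tibetan normoxia and 0.68 and 0.76 in Tibetan hypoxia. The levels of SPIN1 were 3.63 and 3.85 in Tibetan normoxia, 3.47 and 3.53 in Tibetan hypoxia, 3.74 and 3.78 in Shouguang normoxia, 4.19 and 3.91 in Shouguang hypoxia, 4.31 and 4.28 in Dwarf Recessive White normoxia and 3.75 and 4.39 in Dwarf Recessive White hypoxia. On Dwarf Recessive White normoxia replicate 1, the array lowest in HINTW, SPIN1L was at its lowest while SPIN1 was near its highest. The span over the arrays was 6.45 log2 units for the W copy and 0.93 for the Z copy. The larger span rests on that array, where the SPIN1L signal lay far below the filter. SPIN1L stood between -1.24 and 1.20 on the others. UBE2R2, a ubiquitin-conjugating enzyme, and its W-linked relative UBE2R2L gave the same picture, a pair picked after the values were seen. UBE2R2L was at -5.17 on that array and between 0.90 and 2.77 on the others, whereas UBE2R2 was at 4.0011 there and between 3.48 and 4.17 elsewhere. The second probe set of UBE2R2L read -1.04 on that array and spanned 3.16 log2 units. Whether probe sets of Z and W copies read each other's transcripts was not tested.

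**Figure D1:**
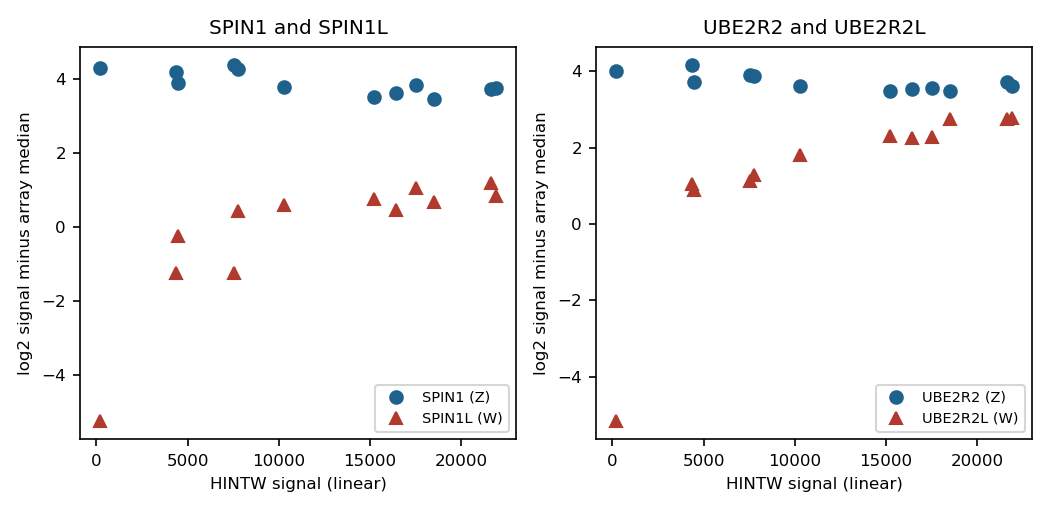
Level (log2 signal minus array median, y axis) of 2 Z-linked genes and their W-linked relatives against HINTW signal (linear, x axis), 1 point per array. The W copies climb from below -5 on the array lowest in HINTW, while SPIN1 and UBE2R2 stay within 0.93 and 0.69 log2 units.

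As a group, the listed Z-linked genes were higher on arrays low in HINTW and lower on arrays high in it. The median deviation of the 30 genes from their own means was 0.22 on Dwarf Recessive White normoxia replicate 1, where HINTW was lowest, and -0.28 on Tibetan hypoxia replicate 1. In the order of rising HINTW signal, the 12 medians were 0.22, 0.10, 0.12, 0.18, 0.11, -0.003, -0.001, -0.25, 0.08, -0.28, -0.05 and -0.13. The order was not strict. Tibetan normoxia replicate 2 had 20 of 30 genes above their own means at a HINTW signal of 17553. Autosomal genes shifted too, with medians between -0.11 and 0.11, and Tibetan normoxia replicate 2 was the array on which they were highest. Relative to the autosomal median, the listed genes were above 0 on the 7 arrays lowest in HINTW and below 0 on the 5 highest, with values from 0.15 to -0.17. The 446 other Z-linked genes spanned 0.16 to -0.18 on the same measure.

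**Figure D2:**
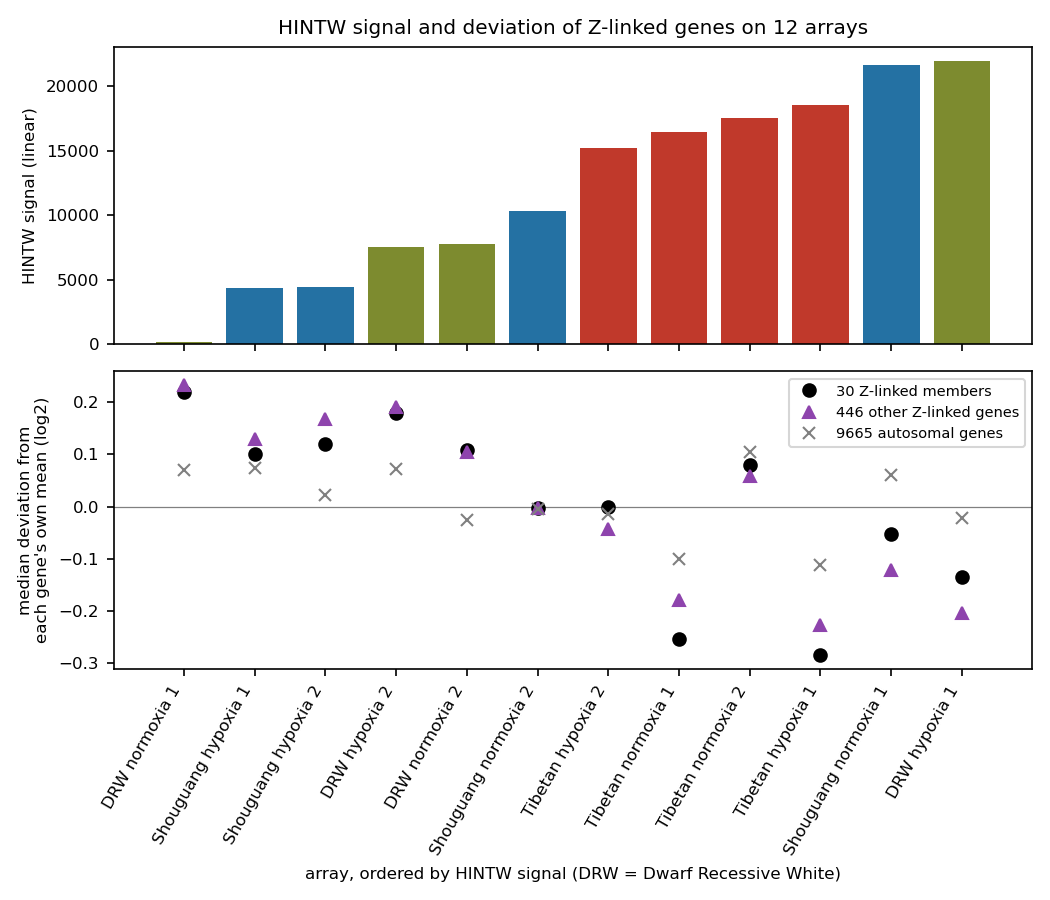
Top, HINTW signal (linear) on each of 12 arrays, in rising order and coloured by breed (red Tibetan, blue Shouguang, green Dwarf Recessive White). Bottom, median deviation of genes from their own mean over 12 arrays (log2) for the 30 listed Z-linked genes, 446 other Z-linked genes and 9665 autosomal genes. The Z-linked medians run from about 0.22 at the left to between -0.28 and 0.08 at the right.

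Each gene was then regressed on HINTW over the 12 arrays with limma, with the fit made on all probe sets. The slope is the change in a gene's log2 level for 1 log2 unit of HINTW. It was below 0 in 24 of the 30 listed genes, with a median of -0.05, against 378 of 446 other Z-linked genes with a median of -0.07 and 6263 of 9665 autosomal genes with a median of -0.01. No listed gene passed an adjusted p of 0.05 in limma, 9 of 30 had an unadjusted p below 0.05 where 5.88% of all probe sets did, and among all those tested 0.00867% of probe sets (2 of 23061) passed as lower with higher HINTW. Without Dwarf Recessive White normoxia replicate 1, 24 of the 30 slopes were still below 0, but the medians became -0.15 for the listed and -0.15 for the other Z-linked genes. Under every scaling tried, including no centring, centring on autosomal genes and quantile normalization, 23 or 24 of the 30 slopes were below 0.

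HINTW on the log2 scale gives the single lowest array great weight. If the arrays held mixtures of male and female RNA, which is not stated, the female share would change in proportion to the HINTW signal. The slopes were therefore also fitted on linear HINTW, with the gene levels kept on the log2 scale. On the linear scale, per 10000 units of HINTW signal, 24 of 30 slopes were again below 0, with a median of -0.20, the same as the -0.20 of the other Z-linked genes and below the -0.04 of autosomal genes. On this scale 0.147% of probe sets (34 of 23061) passed as lower with higher HINTW. Of these, 29 were on Z, none was on an autosome and 5 had no symbol or no place in the gene table, although only 3.34% of tested probe sets with or without a name were placed on Z. Among the listed genes 1 of 30 passed, HSD17B4, and 15 had an unadjusted p below 0.05, where 7.38% of all probe sets did. With each array left out in turn, the number of probe sets passing as lower ranged from 6 to 51, lowest without Dwarf Recessive White normoxia replicate 1. It was 1 with breed beside HINTW in the fit, 1 with no intensity trend in the variances and 0 with a mean for each group beside HINTW.

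Because all Tibetan arrays were high in HINTW, the slopes were also read with other terms in the fit. With breed beside log2 HINTW, 23 of 30 listed genes had slopes below 0, and with oxygen beside it 24 of 30. With the 6 group means in the fit, so that only differences between arrays of the same group count, 21 of 30 were below 0 with a median of -0.03, and 346 of 446 other Z-linked genes were below 0. Among arrays of replicate number 1, 24 of 30 correlations with HINTW were negative, and among those of number 2, 19 of 30. RCL1, PTCH1 and KDM4C were among those whose sign differed between the numbers.

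**Figure D3:**
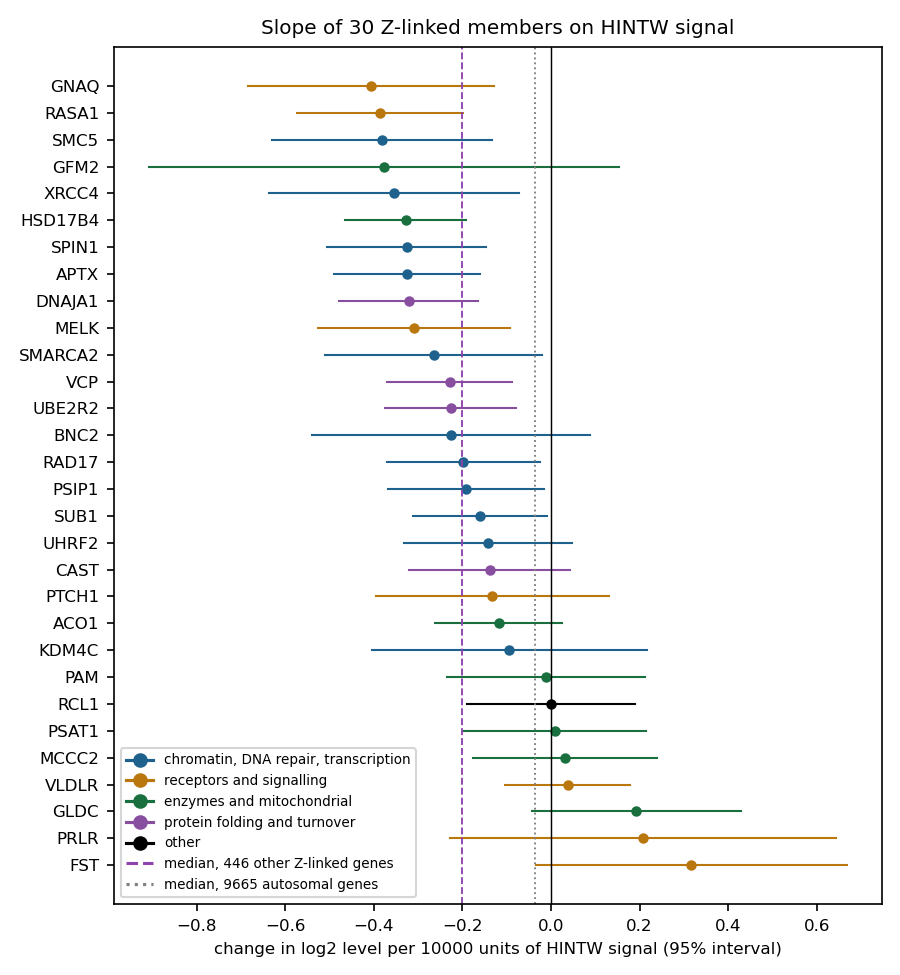
Change in log2 level per 10000 units of HINTW signal (x axis) for 30 listed Z-linked genes, with 95% intervals from limma over 12 arrays, coloured by role. Dashed and dotted lines mark the medians of other Z-linked genes (-0.20) and autosomal genes (-0.04); 24 of the 30 points lie below 0.

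HSD17B4, a peroxisomal enzyme of fatty acid beta-oxidation, had the closest relation to HINTW on the linear scale. In Shouguang, HSD17B4 measured 4.63 and 4.65 in hypoxia and 4.23 and 4.30 in normoxia, against 3.84 and 4.49 and then 4.73 and 4.39 in Dwarf Recessive White and 3.99 and 4.32 and then 4.03 and 4.39 in Tibetan. It was highest on the array lowest in HINTW and lowest on the array highest in it. Its slope was -0.33 ± 0.06 (SE) per 10000 units of HINTW signal (limma adjusted p = 0.0484), a 1.64-fold change over the observed range of HINTW. On the log2 scale its slope was -0.11 ± 0.03 (limma adjusted p = 0.368). The slope was negative in each of 22 linear fits, but the call passed in 6 of them, with adjusted p between 0.0179 and 0.999. It was lost with no filter, with no intensity trend, with the replicate number, breed, oxygen or group in the fit, and in 10 of the 12 fits that left out 1 array, so it rests on the setting. Its Pearson r with log2 HINTW was -0.72 (permutation p = 0.00244) and its Spearman rho -0.82 (permutation p = 0.00175), and r came to -0.75 when the 2 arrays farthest from the median HINTW level were left out. Such correlations were computed for 32 genes, and the adjusted p beside them is that of limma over all probe sets. The permutations shuffled all 12 arrays without regard to breed or condition, so differences between groups enter these permutation p-values.

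All 11 measured genes of DNA repair, chromatin and transcription had slopes below 0 on both scales, with log2 slopes from -0.11 to -0.03 and a median of -0.06, and none passed. Most other Z-linked genes also had log2 slopes below 0, as given above. With group means in the fit, the log2 slopes of SMARCA2, UHRF2 and BNC2 were above 0, at 0.03, 0.0009 and 0.05. APTX, which removes abortive ligation products from DNA ends, had the most negative log2 slope among the 11. Hypoxia arrays of APTX read 2.35 and 2.54 in Tibetan, 3.05 and 2.79 in Shouguang and 2.41 and 2.89 in Dwarf Recessive White, and normoxia arrays 2.55 and 2.31, 2.19 and 2.41 and 2.99 and 2.44 in the same order of breeds. Its levels in both Shouguang hypoxia arrays were above those in both Shouguang normoxia arrays. The slope was -0.11 ± 0.04 on log2 HINTW (limma adjusted p = 0.418) and -0.33 ± 0.08 per 10000 signal units (limma adjusted p = 0.135). Its r was -0.73 (permutation p = 0.00132), rho was -0.82 (permutation p = 0.00156) and r without the 2 farthest arrays was -0.82.

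SPIN1, given above with its W copy, had a log2 slope of -0.11 ± 0.04 (limma adjusted p = 0.607) and a linear slope of -0.33 ± 0.09 (limma adjusted p = 0.188). XRCC4 is the partner of DNA ligase IV in joining double-strand breaks. Normoxia gave XRCC4 levels of 1.34 and 1.04 in Dwarf Recessive White, 0.93 and 1.37 in Shouguang and 0.35 and 1.18 in Tibetan, and hypoxia gave 1.05 and 0.95, 1.56 and 1.62 and 0.27 and 0.93 in that order. It was highest in Shouguang hypoxia and lowest on replicate 1 of both Tibetan groups. SMC5 belongs to the SMC5/6 complex that guards chromosome structure. SMC5 stood at 1.86 and 1.82 in Dwarf Recessive White normoxia, 1.0032 and 1.87 in Dwarf Recessive White hypoxia, 1.55 and 2.10 in Shouguang normoxia, 1.75 and 2.18 in Shouguang hypoxia, 1.09 and 1.86 in Tibetan normoxia and 1.04 and 1.62 in Tibetan hypoxia. Replicate 1 of Dwarf Recessive White hypoxia and of both Tibetan groups gave its lowest levels, and Tibetan normoxia replicate 2 stood well above them. The log2 slopes were -0.11 ± 0.06 for XRCC4 (limma adjusted p = 0.894) and -0.09 ± 0.06 for SMC5 (limma adjusted p = 0.905). The second probe set of XRCC4 gave -0.02 ± 0.07, nearer 0 than the one reported.

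RAD17 loads the checkpoint clamp at damaged DNA. The levels of RAD17 were 1.94 and 1.97 in Tibetan normoxia, 1.94 and 1.79 in Tibetan hypoxia, 2.28 and 2.24 in Shouguang normoxia, 2.27 and 2.27 in Shouguang hypoxia, 2.45 and 2.18 in Dwarf Recessive White normoxia and 1.9999 and 2.45 in Dwarf Recessive White hypoxia. Its 4 Tibetan levels were all at or below 1.97, and its lowest level in the other breeds was 1.9999. PSIP1, a chromatin-tethering coactivator, SUB1, a transcription coactivator, SMARCA2, an ATPase of the SWI/SNF remodelling complex, and UHRF2, a ubiquitin ligase of chromatin, had linear slopes between -0.27 and -0.14. The second probe set of UHRF2 had a log2 slope of 0.005 ± 0.05, against -0.04 ± 0.04 for the first. KDM4C, a histone demethylase, and BNC2, a zinc finger protein, had linear slopes of -0.09 ± 0.15 and -0.23 ± 0.15.

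The 4 measured genes of protein folding and turnover also had slopes below 0. DNAJA1, a co-chaperone of HSP70, had the most negative rank correlation of all listed genes. In Shouguang, DNAJA1 measured 4.44 and 4.08 in hypoxia and 3.57 and 3.82 in normoxia, against 3.80 and 4.41 and then 4.16 and 4.0003 in Dwarf Recessive White and 3.66 and 3.91 and then 3.64 and 3.71 in Tibetan. Its 5 highest levels were those of the 5 arrays lowest in HINTW. Its Spearman rho with HINTW was -0.85 (permutation p = 0.00103) and its r -0.57 (permutation p = 0.0425), which became -0.87 without the 2 farthest arrays. The linear slope was -0.32 ± 0.07 (limma adjusted p = 0.116). VCP is the segregase ATPase that pulls ubiquitinated proteins from complexes. Hypoxia arrays of VCP read 5.24 and 5.40 in Tibetan, 5.99 and 5.69 in Shouguang and 5.36 and 5.80 in Dwarf Recessive White, and normoxia arrays 5.45 and 5.66, 5.73 and 5.61 and 5.95 and 5.67 in the same order of breeds. Both of its Tibetan hypoxia levels lay below both Tibetan normoxia levels, as did those of UBE2R2. The linear slopes of VCP and UBE2R2 were -0.23 ± 0.07 in each case (limma adjusted p = 0.293 and 0.370). CAST, which encodes the calpain inhibitor calpastatin, had a log2 slope nearer 0 than these. Normoxia gave CAST levels of 2.96 and 2.92 in Dwarf Recessive White, 3.07 and 3.09 in Shouguang and 2.73 and 3.05 in Tibetan, and hypoxia gave 3.01 and 3.27, 3.29 and 3.51 and 2.74 and 3.11 in that order. Its highest levels were those of Shouguang hypoxia and its lowest those of replicate 1 of both Tibetan groups. Its log2 slope was -0.02 ± 0.04, with a 95% interval of -0.10 to 0.06, and its second probe set gave -0.06 ± 0.05. With each array left out in turn, that log2 slope ran from -0.18 to -0.008, so it depended on single arrays. The linear slope of CAST was -0.14 ± 0.09 (limma adjusted p = 0.748), and its r without the 2 farthest arrays was -0.50.

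**Figure D4:**
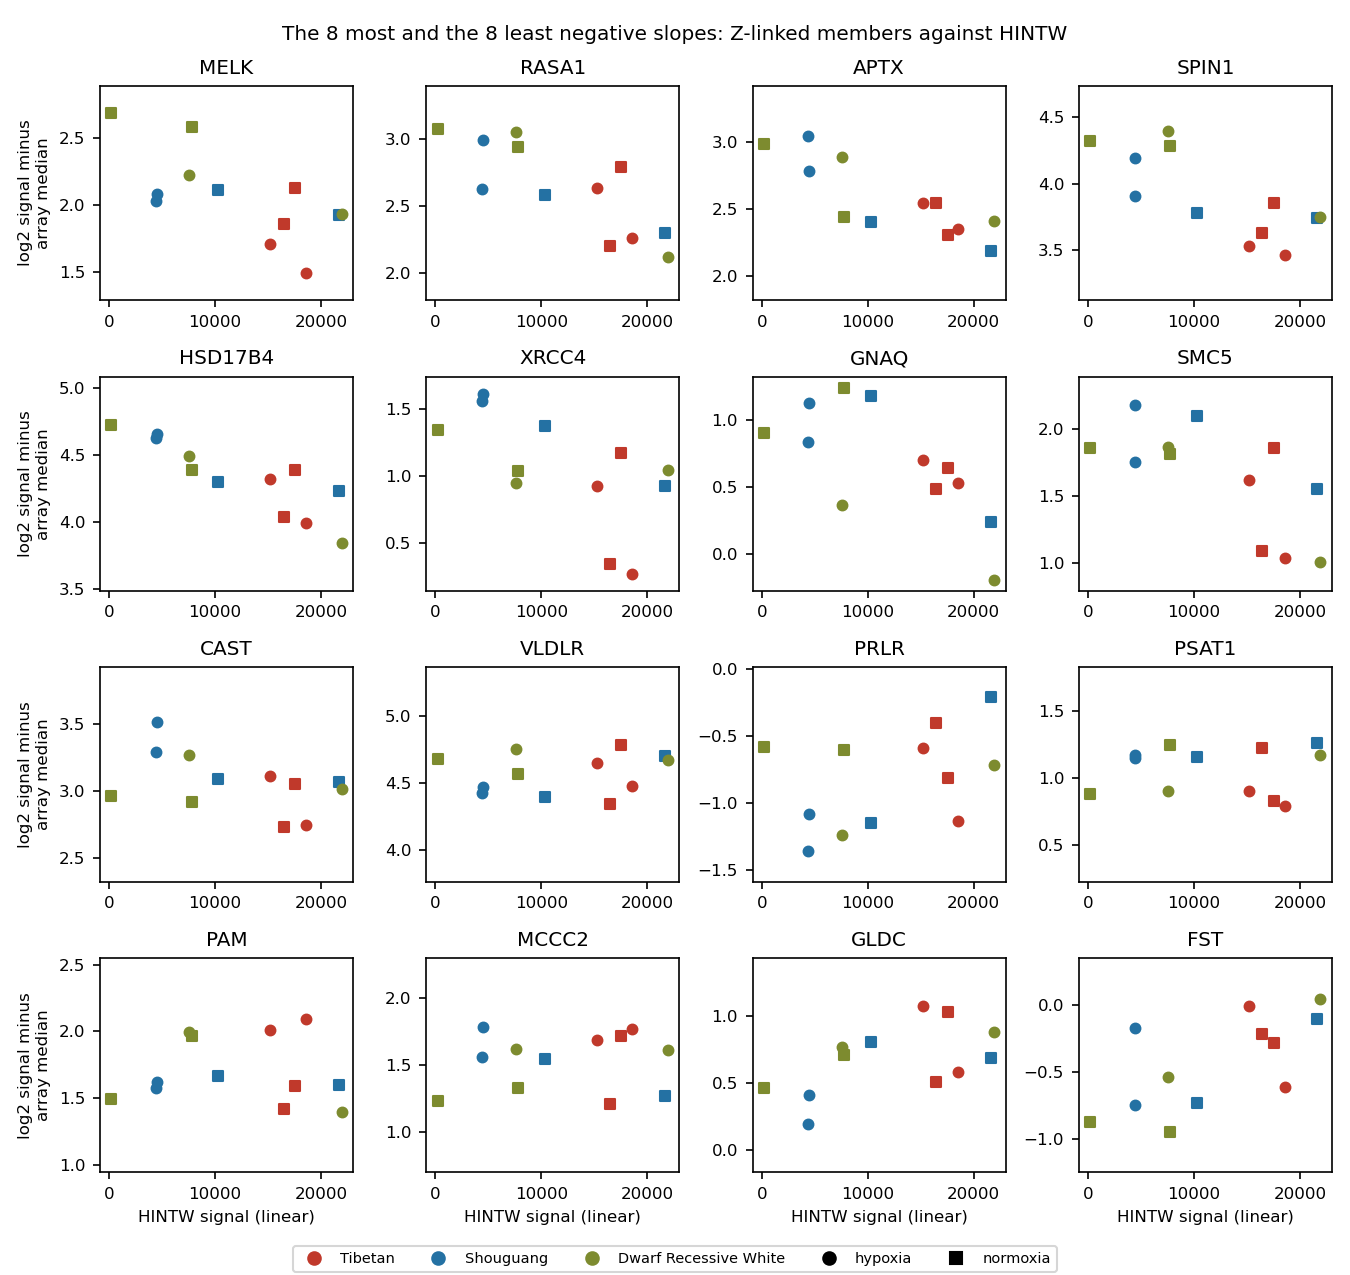
Level (log2 signal minus array median, y axis) against HINTW signal (linear, x axis) for the 8 listed genes with the most negative and the 8 with the least negative or positive log2 slopes, 1 point per array, coloured by breed with circles for hypoxia and squares for normoxia. The panels of the upper rows fall to the right and those of the lower rows are mostly flat or rise, with CAST lower at the right.

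Receptors and signalling genes were split, with 5 of 7 slopes below 0. MELK, a kinase of dividing cells, had the most negative log2 slope of all 30. MELK stood at 2.68 and 2.58 in Dwarf Recessive White normoxia, 1.93 and 2.22 in Dwarf Recessive White hypoxia, 1.93 and 2.11 in Shouguang normoxia, 2.03 and 2.08 in Shouguang hypoxia, 1.86 and 2.13 in Tibetan normoxia and 1.49 and 1.71 in Tibetan hypoxia. Dwarf Recessive White normoxia held its highest levels and Tibetan hypoxia its lowest, without overlap. Its slope was -0.13 ± 0.04 (limma adjusted p = 0.474), with r of -0.70 (permutation p = 0.0089), rho of -0.57 (permutation p = 0.0591) and r of -0.51 without the 2 farthest arrays. With group means in the fit the slope was -0.04. RASA1, a GTPase-activating protein that turns off RAS, followed. The levels of RASA1 were 2.20 and 2.79 in Tibetan normoxia, 2.26 and 2.63 in Tibetan hypoxia, 2.30 and 2.58 in Shouguang normoxia, 2.62 and 2.99 in Shouguang hypoxia, 3.08 and 2.94 in Dwarf Recessive White normoxia and 2.12 and 3.05 in Dwarf Recessive White hypoxia. It was lowest in Dwarf Recessive White hypoxia replicate 1, the array with the highest HINTW, and above 2.9 on 4 of the 5 arrays lowest in HINTW. Its linear slope was -0.39 ± 0.09 (limma adjusted p = 0.108), and it passed only without Tibetan normoxia replicate 2 (limma adjusted p = 0.0442). The other 3 probe sets of RASA1 had log2 slopes between -0.12 and -0.07. Second probe sets of DNAJA1, GNAQ, PSIP1 and VCP also had log2 slopes below 0, at -0.11, -0.13, -0.07 and -0.10.

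GNAQ, the alpha subunit of a G protein that activates phospholipase C, had the steepest linear slope, -0.41 ± 0.13 (limma adjusted p = 0.418). In Shouguang, GNAQ measured 0.83 and 1.13 in hypoxia and 0.24 and 1.18 in normoxia, against -0.20 and 0.36 and then 0.90 and 1.24 in Dwarf Recessive White and 0.53 and 0.70 and then 0.48 and 0.64 in Tibetan. Both Dwarf Recessive White hypoxia arrays lay below both of its normoxia arrays. PTCH1, the receptor of hedgehog ligands, had a log2 slope of -0.02 ± 0.05. The receptor genes VLDLR and PRLR and the activin antagonist FST had slopes near or above 0. VLDLR, the very low density lipoprotein receptor, was the most even of them. Hypoxia arrays of VLDLR read 4.48 and 4.66 in Tibetan, 4.43 and 4.47 in Shouguang and 4.67 and 4.75 in Dwarf Recessive White, and normoxia arrays 4.34 and 4.79, 4.71 and 4.40 and 4.68 and 4.57 in the same order of breeds. Its 12 levels spanned 0.45 log2 units, less than any of the 29 other genes. The log2 slope was -0.00 ± 0.03, with an interval of -0.06 to 0.06 that lies above the median of the other Z-linked genes.

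FST encodes follistatin, which binds activin outside the cell. Normoxia gave FST levels of -0.88 and -0.95 in Dwarf Recessive White, -0.11 and -0.74 in Shouguang and -0.22 and -0.29 in Tibetan, and hypoxia gave 0.046 and -0.54, -0.18 and -0.75 and -0.62 and -0.009 in that order. It was the only one of the 30 whose correlation with HINTW was positive with a permutation p under 0.05, at r = 0.57 (permutation p = 0.0253) and rho = 0.66 (permutation p = 0.0234), and r fell to 0.43 without the 2 farthest arrays. The slope was 0.11 ± 0.07 (limma adjusted p = 0.912). PRLR is the prolactin receptor. PRLR stood at -0.58 and -0.60 in Dwarf Recessive White normoxia, -0.72 and -1.24 in Dwarf Recessive White hypoxia, -0.21 and -1.15 in Shouguang normoxia, -1.36 and -1.08 in Shouguang hypoxia, -0.40 and -0.82 in Tibetan normoxia and -1.13 and -0.59 in Tibetan hypoxia. Its slope was 0.02 ± 0.08 and its interval, from -0.16 to 0.20, held both 0 and the Z median. FST and PRLR had mean signals of 106 and 80.7, close to the filter at 79.5, and FST was above the array median on 1 of 12 arrays and PRLR on none.

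Metabolic genes held most of the log2 slopes that were not negative, with 4 of 7 above 0 and a median of 0.02. On the linear scale 3 of 7 were above 0, with a median of -0.01. The receptors and signalling genes also had 3 of 7 above 0 on that scale. GLDC is the glycine decarboxylase of the mitochondrial glycine cleavage system. The levels of GLDC were 0.51 and 1.03 in Tibetan normoxia, 0.58 and 1.07 in Tibetan hypoxia, 0.68 and 0.81 in Shouguang normoxia, 0.19 and 0.41 in Shouguang hypoxia, 0.46 and 0.71 in Dwarf Recessive White normoxia and 0.88 and 0.76 in Dwarf Recessive White hypoxia. Both Shouguang hypoxia arrays, which were low in HINTW, gave its lowest levels, and its slope was 0.07 ± 0.05. MCCC2 is a subunit of methylcrotonyl-CoA carboxylase in leucine breakdown. In Shouguang, MCCC2 measured 1.56 and 1.79 in hypoxia and 1.27 and 1.55 in normoxia, against 1.62 and 1.62 and then 1.23 and 1.33 in Dwarf Recessive White and 1.77 and 1.69 and then 1.21 and 1.72 in Tibetan. It was higher in hypoxia than in normoxia on every array of Shouguang and of Dwarf Recessive White, and overlapped in Tibetan. PAM makes amidated peptides and is abundant in atrial muscle, and PSAT1 is an aminotransferase of serine synthesis. Hypoxia arrays of PAM read 2.10 and 2.01 in Tibetan, 1.58 and 1.62 in Shouguang and 1.40 and 1.9970 in Dwarf Recessive White, and normoxia arrays 1.42 and 1.59, 1.60 and 1.67 and 1.4962 and 1.97 in the same order of breeds. Normoxia gave PSAT1 levels of 0.88 and 1.25 in Dwarf Recessive White, 1.26 and 1.16 in Shouguang and 1.23 and 0.83 in Tibetan, and hypoxia gave 1.17 and 0.90, 1.15 and 1.18 and 0.79 and 0.91 in that order. Neither order followed HINTW. Slopes were 0.04 ± 0.04 for MCCC2, 0.03 ± 0.04 for PAM and 0.02 ± 0.04 for PSAT1. ACO1, the cytosolic aconitase that also acts as an iron-regulatory RNA-binding protein, had a slope of -0.04 ± 0.03. Without Dwarf Recessive White normoxia replicate 1, the slopes of MCCC2, PAM and PSAT1 were -0.04, -0.03 and -0.05, and that of VLDLR was 0.07.

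By an interval rule, a gene was said to follow HINTW if it passed with a negative slope, and to look compensated if the 95% interval of its slope held 0 and lay wholly above the median slope of the other Z-linked genes. On log2 HINTW 0 of 30 followed, 6 looked compensated (VLDLR, PSAT1, PAM, MCCC2, GLDC and FST) and 24 were undecided. On the linear scale 1 followed (HSD17B4), 6 looked compensated (RCL1, VLDLR, PSAT1, MCCC2, GLDC and FST) and 23 were undecided. The rule sets no upper bound, so a gene that rose with HINTW could meet it. The label does not show that FST and GLDC were level. Their r with log2 HINTW was 0.57 and 0.50 (permutation p = 0.0253 and 0.103). RCL1, a ribosomal RNA processing protein, had a linear slope of -0.00 ± 0.09, and PAM one of -0.01 ± 0.11 with an interval from -0.23 to 0.21. The intervals of most genes were too wide to place them, and an undecided gene is not shown to be either.

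Whether position along Z sorted the genes was not tested. In the order of the GRCg7b table, the genes with log2 slopes above 0 were at places 4, 5, 11, 17, 20 and 29 of the 30. The 9 genes with an unadjusted limma p below 0.05 on log2 HINTW were at places 1, 2, 19, 22, 24, 25, 26, 28 and 30. Places 3 to 18 thus held none of these 9. This depended on the scale. On linear HINTW, where 15 genes had such a p, SUB1, SMARCA2, PSIP1, SMC5 and GNAQ did, at places 3, 7, 13, 15 and 16. Neighbours among the 30 could differ, as HSD17B4 stood next to MCCC2 and FST next to GFM2.

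Outside the list, the named genes with the most negative correlations with log2 HINTW were HTT, CYB5B, LAMTOR2 and MRPS30, on chromosomes 4, 11, 25 and Z. Their r was -0.93, -0.87, -0.87 and -0.87 over 12 arrays. HTT, which encodes huntingtin, had a log2 slope of -0.22 ± 0.04 (limma adjusted p = 0.00982), and MRPS30, a mitochondrial ribosomal protein, one of -0.14 ± 0.03 (limma adjusted p = 0.0553). On linear HINTW, MRPS30 passed as lower (limma adjusted p = 0.0122), and no probe set placed on an autosome did. BAG1 and NFX1, on chromosome 2, had slopes of -0.01 ± 0.06 and -0.07 ± 0.07.

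Differences between breeds were tested as means over both conditions. In the main fit, no listed gene passed in any of the 3 comparisons. The share of all probe sets that passed was 0.386% for Tibetan minus Shouguang and 0.529% for Tibetan minus Dwarf Recessive White. It was 0.976% for Shouguang minus Dwarf Recessive White. Unadjusted p-values under 0.05 were found for 6, 6 and 2 of the 30 genes, where 11.6%, 11.3% and 10.4% of all probe sets had one. With the replicate number also in the fit, SPIN1 and MELK passed in Tibetan minus Dwarf Recessive White (limma adjusted p = 0.0485 and 0.0430). GFM2 then passed in Shouguang minus Dwarf Recessive White (limma adjusted p = 0.0257). Over all probe sets that term raised the calls in these comparisons from 122 to 332 and from 225 to 460. Relative to Shouguang, the median log2 difference of the listed genes in Tibetan was -0.22, with 21 of 30 below 0. That of other Z-linked genes was -0.15, with 315 of 446 below 0. Relative to Dwarf Recessive White the listed median was -0.20, with 23 of 30 below 0, and that of other Z-linked genes was -0.17, with 340 of 446 below 0. The autosomal medians were -0.06 in each, with 5993 and 5930 of 9665 genes below 0. The second of these listed medians ranged more widely with single arrays left out, from -0.08 without Tibetan normoxia replicate 1 and -0.10 without Tibetan hypoxia replicate 1 or Dwarf Recessive White hypoxia replicate 2 to -0.31 without Dwarf Recessive White hypoxia replicate 1. The 3 comparisons share groups and are not independent.

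HINTW was high on all Tibetan arrays. With HINTW as a covariate, the medians of these 2 differences were -0.17 and -0.11 for the listed genes, -0.09 and -0.09 for the other Z-linked genes and -0.05 and -0.03 for autosomal genes, and the median standard error of a single gene was 0.21 and 0.24. The part of HINTW in these differences was not tested. In Shouguang minus Dwarf Recessive White the medians without the covariate were -0.04 and -0.01, and both turned above 0 with it, to 0.03 and 0.02. Breed and HINTW level are partly confounded here and can be told apart only as far as that fit goes.

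GFM2, a mitochondrial elongation factor that recycles ribosomes, had the smallest p of any breed comparison. GFM2 stood at -0.012 and -0.050 in Dwarf Recessive White normoxia, -1.44 and 0.16 in Dwarf Recessive White hypoxia, 0.62 and 0.80 in Shouguang normoxia, 1.63 and 1.07 in Shouguang hypoxia, 0.26 and 0.62 in Tibetan normoxia and 0.31 and 0.73 in Tibetan hypoxia. All 4 Shouguang levels were above all 4 Dwarf Recessive White levels. The difference was 1.36 ± 0.31 (limma adjusted p = 0.0546), and over 26 fits it was positive in all, from 0.97 to 1.76, and passed in 8. Without Dwarf Recessive White hypoxia replicate 2 the adjusted p was 0.00626. In Tibetan minus Dwarf Recessive White, GFM2 differed by 0.82 ± 0.31 (limma adjusted p = 0.327). Its HINTW slope was among the least certain, at -0.03 ± 0.11.

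SPIN1 and MELK had the smallest p in Tibetan minus Dwarf Recessive White, at -0.56 ± 0.14 each (limma adjusted p = 0.101 and 0.109). Without Dwarf Recessive White hypoxia replicate 1, SPIN1 passed at -0.72 ± 0.13 (limma adjusted p = 0.0312). Over 27 fits both differences stayed below 0, and SPIN1 passed in 2 and MELK in 1. Shouguang minus Dwarf Recessive White gave -0.28 ± 0.14 for SPIN1 and -0.32 ± 0.14 for MELK. In Tibetan minus Shouguang the smallest p belonged to XRCC4, VCP and RAD17, with differences of -0.69 ± 0.22, -0.31 ± 0.12 and -0.36 ± 0.14 (limma adjusted p = 0.223, 0.331 and 0.351).

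The response to oxygen was tested as hypoxia minus normoxia. Averaged over the breeds, no listed gene passed, against 0.0867% of all probe sets, 2 of 30 had an unadjusted p below 0.05, where 6.82% of all probe sets did, and the median difference was -0.00. The smallest p belonged to MELK, at -0.30 ± 0.12, MCCC2, at 0.29 ± 0.13, and DNAJA1, at 0.23 ± 0.12 (limma adjusted p = 0.617, 0.721 and 0.775).

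Within breeds, no listed gene passed. The differences were mostly above 0 in Shouguang and mostly below 0 in Dwarf Recessive White and in Tibetan, where most autosomal genes were below 0 too. In Shouguang the median log2 difference was 0.20, with 21 of 30 above 0, beside 0.22 for the other Z-linked genes (342 of 446 above 0) and 0.02 for autosomal genes. In Dwarf Recessive White it was -0.10, with 23 of 30 below 0, beside -0.18 for the other Z-linked genes and 0.00 for autosomal genes. In Tibetan it was -0.07, with 20 of 30 below 0. Beside it stood -0.07 for the other Z-linked genes (285 of 446 below 0) and -0.06 for autosomal genes (5984 of 9665 below 0). The share of probe sets that passed was 0% in Tibetan, 0% in Shouguang and 0.00867% in Dwarf Recessive White. At an unadjusted p below 0.05, limma gave 1, 2 and 2 listed genes, against 3.89%, 4.75% and 5.42% of all probe sets. These medians moved when single arrays were left out. In Dwarf Recessive White the listed genes had a median of 0.07 and the other Z-linked genes 0.03 without hypoxia replicate 1, and -0.31 and -0.36 without hypoxia replicate 2. It was -0.22 for the listed genes without normoxia replicate 2. In Tibetan the listed median was 0.11 without hypoxia replicate 1 and 0.13 without normoxia replicate 2, and -0.23 and -0.20 without the other array of each group. In Shouguang it was above 0 in each of these fits, from 0.12 without normoxia replicate 1 and 0.13 without hypoxia replicate 1 to 0.29 without normoxia replicate 2.

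HINTW also differed between conditions in Shouguang and in Dwarf Recessive White. In Shouguang it was lower in hypoxia (4391 and 4471) than in normoxia (21644 and 10297). In Dwarf Recessive White the arrays overlapped, with normoxia at 214 and 7778 and hypoxia at 21934 and 7558. With HINTW as a covariate, the medians in Shouguang were 0.22 for the listed genes and 0.13 for other Z-linked genes, and in Dwarf Recessive White -0.05 and -0.02. In Tibetan, where HINTW was alike in both conditions, they were -0.07 and -0.08. The condition and HINTW cannot be fully told apart with 2 arrays per group.

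**Figure D5:**
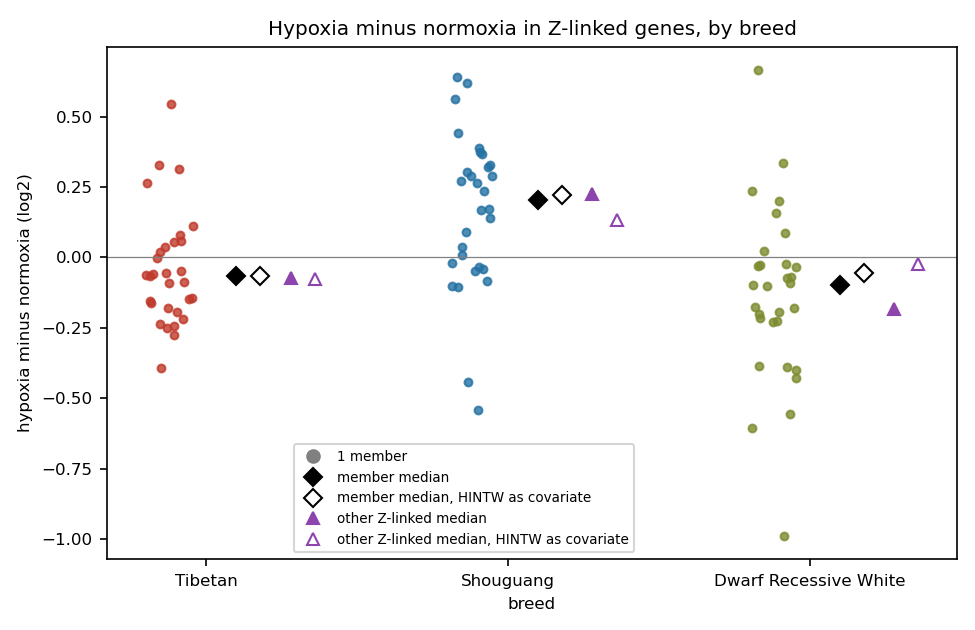
Hypoxia minus normoxia (log2, y axis) within each breed (x axis) for 30 listed Z-linked genes (circles), with medians of the listed genes (diamonds) and of 446 other Z-linked genes (triangles), filled without and open with HINTW as a covariate. The filled medians of Shouguang lie at 0.20 and 0.22, those of Dwarf Recessive White at -0.10 and -0.18.

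In Shouguang, 13 of the 30 listed genes had both hypoxia arrays above both normoxia arrays, where 18.7% of all probe sets did, and so did 189 of 446 other Z-linked genes (42.4%). The 13 were SMARCA2, SPIN1, RASA1, XRCC4, CAST, HSD17B4, UHRF2, KDM4C, APTX, UBE2R2, DNAJA1, MCCC2 and GFM2. GLDC alone of the 30 had both hypoxia arrays below, where 13.3% of all probe sets and 29 of the other Z-linked genes did. In Dwarf Recessive White, 3 of 30 had both hypoxia arrays below both normoxia arrays (PRLR, MELK and GNAQ), where 17.3% of all probe sets and 86 of the other Z-linked genes (19.3%) did. A like number, 4 of 30, had both above (FST, CAST, GLDC and MCCC2), where 17.6% of all probe sets and 31 of the other Z-linked genes did. In Tibetan, 5 of 30 had both below (SPIN1, RCL1, UBE2R2, VCP and MELK) and 2 had both above (PAM and BNC2), where 17.3% and 12.3% of all probe sets and 83 and 40 of the other Z-linked genes did. Of these 6 counts, the 13 in Shouguang was the one furthest above the share of all probe sets. HINTW was lower in hypoxia on both arrays of that breed, and its part in this count was not tested.

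The genes with the smallest p within a breed were those already described. In Shouguang they were DNAJA1 at 0.56 ± 0.21, APTX at 0.62 ± 0.23 and HSD17B4 at 0.38 ± 0.21 (limma adjusted p = 0.9795, 0.9999 and 0.9999). In Dwarf Recessive White they were GNAQ at -0.99 ± 0.33, MELK at -0.56 ± 0.20 and HSD17B4 at -0.39 ± 0.21 (limma adjusted p = 0.685, 0.776 and 0.977). In Tibetan they were PAM at 0.55 ± 0.24, MELK at -0.39 ± 0.20 and VCP at -0.24 ± 0.17 (limma adjusted p = 0.999998 in each).

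Whether the response differed between breeds was tested directly. No listed gene passed in any of the 3 differences, and no probe set did (0% in each). For Shouguang minus Dwarf Recessive White, the listed genes had a median of 0.36, with 23 of 30 above 0, and the other Z-linked genes 0.40. With HINTW as a covariate these were 0.20 and 0.15, and without Dwarf Recessive White hypoxia replicate 1 they were 0.11 and 0.19. Without Shouguang normoxia replicate 1 the listed median was 0.22. GNAQ differed by 1.26 ± 0.47, HSD17B4 by 0.76 ± 0.30 and APTX by 0.69 ± 0.33 (limma adjusted p = 0.9998 in each). For Tibetan minus Shouguang the listed median was -0.25, with 23 of 30 below 0, beside -0.29 for other Z-linked and -0.09 for autosomal genes. That listed median was -0.08 without Tibetan normoxia replicate 2 and -0.44 without Tibetan hypoxia replicate 2. For Tibetan minus Dwarf Recessive White the 3 medians were 0.02, 0.09 and -0.07. The smallest p in Tibetan minus Dwarf Recessive White belonged to GNAQ (1.04 ± 0.47), PAM (0.58 ± 0.34) and GFM2 (0.69 ± 0.61). In Tibetan minus Shouguang it belonged to SPIN1 (-0.53 ± 0.28), APTX (-0.60 ± 0.33) and PAM (0.58 ± 0.34). At an unadjusted p below 0.05, limma gave 2, 1 and 0 listed genes, against 4.33%, 3.61% and 2.66% of all probe sets.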

How the data were processed

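Labelled RNA from embryonic chicken hearts was hybridised to 12 Affymetrix arrays, 2 for each of 6 groups of breed and oxygen condition. The authors deposited a linear signal intensity for each probe set, computed with GCOS, per the submitters' processing notes; its version and settings were not stated. The trimmed mean intensity was 500.0 on every array, which is what scaling to a common target gives. No scanner files or scan dates were used here, and arrays give no read depth: their number limits the precision.

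From the 38535 probe sets, 96 controls were left out, intensities were put on the log2 scale and each array's median was subtracted. Probe sets under the 40th percentile of mean log2 signal (a signal of 79.5) were dropped, leaving 23063. Symbols came from the platform annotation (27168 probe sets with 1 symbol, 177 with several and 11094 with none; only the first were named), and chromosomes from the GRCg7b gene table by gene ID. Its coordinates were used only for the order of genes on Z, and no sequence was used.

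Fits were made in R 4.3.3 with limma 3.58.1 (eBayes with an intensity trend), two-sided, with Benjamini-Hochberg adjustment over all tested probe sets and a threshold of 0.05. HINTW (the probe set with the highest mean signal) was a covariate over all 12 arrays, on the log2 scale as the main measure and also on the linear scale, and its own probe sets were left out of the adjustment, leaving 23061. Breed and oxygen effects came from a fit of the 6 group means. Intervals are 95% intervals, and errors are standard errors, of the fit that gave the estimate. Permutation tests were two-sided with 100000 resamples, and treated the 12 arrays as exchangeable across breeds and conditions. The fits were tested on simulated data.

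Genes given with every array are HINTW, the 8 most and the 8 least negative log2 slopes, genes with a W copy by symbol, and the 3 smallest p-values of each contrast where none passed. The genes, their role groups and the marker lists were chosen with earlier results of these data known. Alternatives were other filters, centrings and normalizations, an offset of 26.6, array weights, the replicate block, 1 probe set per gene, second probe sets, other terms beside HINTW, other measures of W-linked level, and each array left out. The alternatives on the linear scale, other than the scale itself, and the fits that join HINTW or group means with the replicate block were chosen after seeing the data. So were the counts of genes whose hypoxia and normoxia arrays do not overlap and the array medians taken relative to autosomal genes.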

Additional observations from a re-analysis of the deposited data

How the results depend on the processing

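Calls were few, so single settings moved them. On log2 HINTW, 0 listed genes passed as lower in every alternative except the linear scale, where 1 did. On the linear scale the count of 1 was 0 with no filter, no intensity trend, the replicate block, or group means, breed or oxygen beside HINTW, and 0 to 2 with each array left out. Tibetan minus Dwarf Recessive White gave 2 genes with the replicate block (MELK and SPIN1) and 0 to 1 with each array left out, against 0. Shouguang minus Dwarf Recessive White gave 1 (GFM2), against 0, with no centring, centring on autosomal genes, the offset, array weights, the replicate block, 1 probe set per gene, and HINTW as a covariate with the replicate block, and 0 to 1 with each array left out. The other contrasts stayed at 0 under every alternative run. Slopes near 0 changed sign without passing. In 896 refits of single slopes, 30 turned, in 11 genes. VLDLR, at -0.00, was 0.0124 with no centring, 0.00591 centred on autosomal genes, 0.0193 after quantile normalization, 0.000601 with the offset, 0.00287 with array weights, 0.0121 with breed in the fit, 0.0372 on linear HINTW, 0.0112 on its rank and 0.0732 without the 2 arrays farthest in HINTW. Group means in the fit gave 0.0294 for SMARCA2, 0.000923 for UHRF2 and 0.0548 for BNC2, and with the replicate block 0.0533 for BNC2 and -0.00371 for MCCC2. RCL1 was 0.00534 on the rank and 0.00877 without the 2 arrays. PAM was -0.0111 on linear HINTW, -0.00521 on the rank and -0.0765 without the 2 arrays, and PSAT1 was -0.0369 without them. Leaving out each array gave ranges of -0.0706 to 0.00637 for KDM4C, -0.0441 to 0.0902 for RCL1, -0.491 to 0.0455 for GFM2, -0.00965 to 0.0735 for VLDLR, -0.0103 to 0.28 for PRLR, -0.0476 to 0.0277 for PSAT1, -0.0345 to 0.0403 for PAM and -0.0392 to 0.0528 for MCCC2. The cause of these changes was not tested. With 2 arrays per group the median standard error of a difference within a breed was 0.27 log2 units, and no depth is known for arrays. The replicate numbers were not taken as pairs: deviations of same-numbered arrays correlated at 0.06 to 0.20 over 15 pairs of groups, above 0.1 in 7. All 15 were above 0, a hint from the data, not the design, that same-numbered arrays may share something. Over all probe sets the replicate block raised the calls from 89 to 323 in Tibetan minus Shouguang, 122 to 332 in Tibetan minus Dwarf Recessive White, 225 to 460 in Shouguang minus Dwarf Recessive White, 0 to 9 in Shouguang hypoxia and 20 to 44 in the mean hypoxia effect. With HINTW and the replicate block, the median Dwarf Recessive White hypoxia effect turned to 0.03 for the listed and 0.04 for the other Z-linked genes.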
